A study of Mus musculus with 120 samples.

Results

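Mouse group 2 innate lymphoid cells (mILC2s) caught at the onset of IL-13 secretion were compared with stimulated mILC2s in which no IL-13 secretion had been seen. The onset group held the 11 cells labelled as transition state, recovered 30 min after secretion began, and the silent group held the 11 cells labelled silent, both from the experiment that used IL-13 secretion as its index. All 22 cells, of 120 in the series, were taken by their labels and had more than 10000 reads in genes, so 0 were dropped. ILC2s are lymphocytes without antigen receptors that answer epithelial alarm signals such as IL-33 with type 2 cytokines. IL-33 acts through its receptor ST2 and signals to NF-kB and to MAP kinases, which act on AP-1, whereas IL-2 signals through STAT5. IL-13 drives mucus production and alternative macrophage activation, and IL-5 sustains eosinophils.

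The cells came from the pooled mesentery of 20 wildtype C57BL/6 mice, were gated as lineage-negative c-Kit+ Sca-1+ cells, were expanded in long-term culture with IL-2, and received IL-2 plus IL-33 under live imaging of secretion. Each cell gave 1 3' RNA sequencing library, and since nothing in the labels ties a cell to an animal or culture, each group counts as 1 sample and no test was made. Silent cells were recovered at the end of the stimulation and onset cells each at its own time, so secretory state and time since stimulation cannot be told apart. Of each group, 5 cells carry the first and 6 the second of 2 title dates, and the labels do not say what the dates mark. Libraries were pooled in sets of 5 or 6 before fragmentation, and which cells shared a pool is not given in the sources used here.

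Gene reads per cell ran from 166650 to 361239 (median 219186) at onset and from 139108 to 321551 (median 235502) in the silent group. At an equal depth of 100000 reads, onset cells held 1891 to 2479 detected genes (median 2223) and silent cells 1954 to 2796 (median 2355), and the 50 most abundant genes took a median of 32.9% and 29.4% of reads. The labelled cell type was checked against its markers: Gata3, Rora, Id2 and Ly6a (Sca-1) were read in 11 of 11 cells of both groups, Kit in 11 and 10, and Il1rl1 (the IL-33 receptor ST2) in 11 and 8. Klrg1, from the same marker list, was read in 10 and 7, with a median of 6.65 CPM in silent cells. The ILC2 markers given here are part of a longer list. All listed markers of B cells (5), of NK cells and ILC1 (6) and of mast cells and basophils (7) were at 0 reads in both groups. T cell markers summed to 734 CPM (reads of a gene per 1000000 gene reads) at onset, with 6 of 11 at 0, and to 1197 CPM in silent cells, with 5 of 11 at 0. Single cells ranged from 0 to 1517 and from 0 to 4701 CPM, mostly through Trbc2 and Cd3g. All 5 ILC3 markers were at 0 at onset, and 2 were at 0 in the silent group, where the list summed to 190 CPM. Most of it was Ccr6, at 178 CPM from 2 cells with up to 1490.4 CPM, and Il23r stood at 5.29 CPM, from 1 cell. Myeloid markers stood at 0 and 42.7 CPM, with 5 of 7 at 0 in silent cells. Of 8 adipocyte and stromal markers 7 were at 0 in both groups, and the other, Pecam1, stood at 38.5 and 80.9 CPM, up to 444 and 627 CPM in a cell, with log2 ratios of 2.93 and −4.04 on the 2 dates. The part of these markers in the differences below was not tested.

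For the sequences behind the transcripts that separated the groups, RefSeq promoter windows (build GRCm38.p6, 250 bases before to 50 after the start) were searched on both strands for 3 motifs. They were AP-1 (TGANTCA), NF-kB (GGGNNNTTCC) and CRE (TGACGTCA). Shown 5′ to 3′, with motif matches in capitals, are Il13 (chr11:53634653-53634952, minus strand), the index gene, and Il6 (chr5:30012864-30013163, plus strand), Tnfaip3 (chr10:19015361-19015660, minus strand) and Rel (chr11:23770920-23771219, minus strand), 3 genes higher at onset whose windows held a match.
Il13: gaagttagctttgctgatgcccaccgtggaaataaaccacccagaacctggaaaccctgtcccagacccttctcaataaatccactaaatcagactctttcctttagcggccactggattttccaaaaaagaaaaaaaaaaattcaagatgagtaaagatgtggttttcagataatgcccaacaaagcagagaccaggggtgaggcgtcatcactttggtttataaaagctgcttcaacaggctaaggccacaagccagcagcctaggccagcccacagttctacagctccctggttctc
Il6: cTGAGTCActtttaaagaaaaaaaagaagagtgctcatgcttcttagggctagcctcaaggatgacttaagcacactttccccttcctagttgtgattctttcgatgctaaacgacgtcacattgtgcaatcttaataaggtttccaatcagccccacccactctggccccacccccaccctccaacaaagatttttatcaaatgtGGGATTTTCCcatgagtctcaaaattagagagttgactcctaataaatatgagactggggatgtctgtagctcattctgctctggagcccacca
Tnfaip3: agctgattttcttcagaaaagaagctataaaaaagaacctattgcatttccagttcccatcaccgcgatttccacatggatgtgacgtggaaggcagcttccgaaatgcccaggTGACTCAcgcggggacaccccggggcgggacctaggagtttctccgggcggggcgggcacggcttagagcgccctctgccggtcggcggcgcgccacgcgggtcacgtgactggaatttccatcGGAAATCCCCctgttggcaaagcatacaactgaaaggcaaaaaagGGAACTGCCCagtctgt
Rel: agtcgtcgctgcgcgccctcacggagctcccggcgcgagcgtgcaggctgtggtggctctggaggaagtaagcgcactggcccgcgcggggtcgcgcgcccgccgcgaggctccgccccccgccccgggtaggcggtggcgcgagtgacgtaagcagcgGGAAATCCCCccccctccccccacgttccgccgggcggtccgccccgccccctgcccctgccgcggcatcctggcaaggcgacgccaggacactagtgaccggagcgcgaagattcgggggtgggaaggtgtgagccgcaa

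In the Il6 window the AP-1 match began at base 2 and the NF-kB match at base 207, with the start site at base 251. The Tnfaip3 window held 1 AP-1 and 2 NF-kB matches, the Rel window 1 NF-kB match, and the Il13 window 0 of the 3 motifs. The windows of Il4, Il5, Pim1, Bcl3, Cd274, Irf5, Gadd45b, Sqstm1, Kdm2b and Egr2, also higher at onset, and of Avpi1, lower at onset, held 0 as well, and that of Prnp, lower at onset, held 1 AP-1 match at base 149. Over the genes counted below as higher at onset, 10 of 142 with a window (7.04%) held AP-1 letters and 10 (7.04%) NF-kB letters, against 5.09% and 6.53% of 2220 genes compared. Genes counted as lower held them in 4.69% and 6.77% of 192 windows. CRE letters were in 1.41%, 2.08% and 3.47% of the higher, lower and all compared genes. Matches are described only as letters.

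Il13 itself separated the groups cell by cell. Il13 (ENSMUSG00000020383, chromosome 11, 53631324 to 53634702, minus strand, GRCm38) ran from 150.4 to 5840.3 CPM over the onset cells with a median of 1364, and was at 0 in 10 of 11 silent cells and at 58.5 CPM in silent replicate 1. Every onset cell lay above every silent cell. Summed over cells, 5739 reads against 11 gave 2144 and 4.16 CPM, a 516-fold difference with a 95% counting interval of 288 to 1034. The log2 ratio was 9.01, with 7.77 on the first title date and 10.07 on the second, where the silent group was at 0 and set to 3 reads. Leaving out silent replicate 1, which held all silent reads, moved it to 10.78.

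The neighbouring type 2 cytokine genes on chromosome 11 differed less. Il5, 6.42-fold higher at onset (log2 ratio 2.68, interval 2.55 to 2.82), ran from 4.74 to 4156 CPM with a median of 949 at onset and from 0 to 805 with a median of 66.5 in silent cells, so the groups overlapped, with 6 onset cells above all silent cells and a log2 ratio of 3.43 without silent replicate 7. Il4, the cytokine of type 2 helper responses, was read in 8 onset and 2 silent cells, from 0 to 532 CPM (median 50.2) and from 0 to 233 CPM (median 0), and was 4.64-fold higher. Its log2 ratio of 2.21 was 1.61, under 4-fold, without onset replicate 9 and 4.28 without silent replicate 10, which held 78.9% of the silent reads. Rad50, a DNA repair gene that lies between Il13 and Il5 (53649519 to 53707319), stood at 70.2 and 57.8 CPM, a log2 ratio of 0.28 (−0.03 to 0.60) whose interval held 0. The flanking genes Kif3a and Irf1 had log2 ratios of −1.41 (−2.11 to −0.75) and 0.18 (−0.31 to 0.67), from 10.1 against 26.8 and 29.5 against 26.1 CPM. Sept8, beyond Kif3a, had 114 onset reads in 2 cells and 0 silent reads (log2 ratio of 5.23 against the floor). These 4 neighbours were looked up after the values of the cytokine genes were seen.

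Among the other cytokines, Il6, an inflammatory cytokine, reached 6901 CPM with a median of 529 at onset and was at 0 in 9 of 11 silent cells (highest 139.6 CPM), which gave a 90.1-fold difference (log2 ratio 6.49, and 7.44 without silent replicate 5). Csf2, which encodes GM-CSF, was read in all 11 onset cells (233 to 6457 CPM, median 1251) and in 8 silent cells (up to 4561 CPM, median 4.75). The summed ratio was 2.35-fold and the ranges overlapped, so silence for IL-13 did not go with a lack of Csf2 in every cell. Il9 had 1 read in each group, at a log2 ratio of −0.02 with an interval of −6.31 to 6.28, and no difference was detectable at this depth. Over the list of 22 cytokines, 9 could be compared and 4 were counted as higher (at least 4-fold, and 2-fold on each date) and 0 as lower, against 6.7% and 8.2% of all genes compared. They were Il5, Il4, Il6 and Il13, whose secretion defined the onset group, and the list median was a log2 ratio of 1.75.

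**Figure D1:**
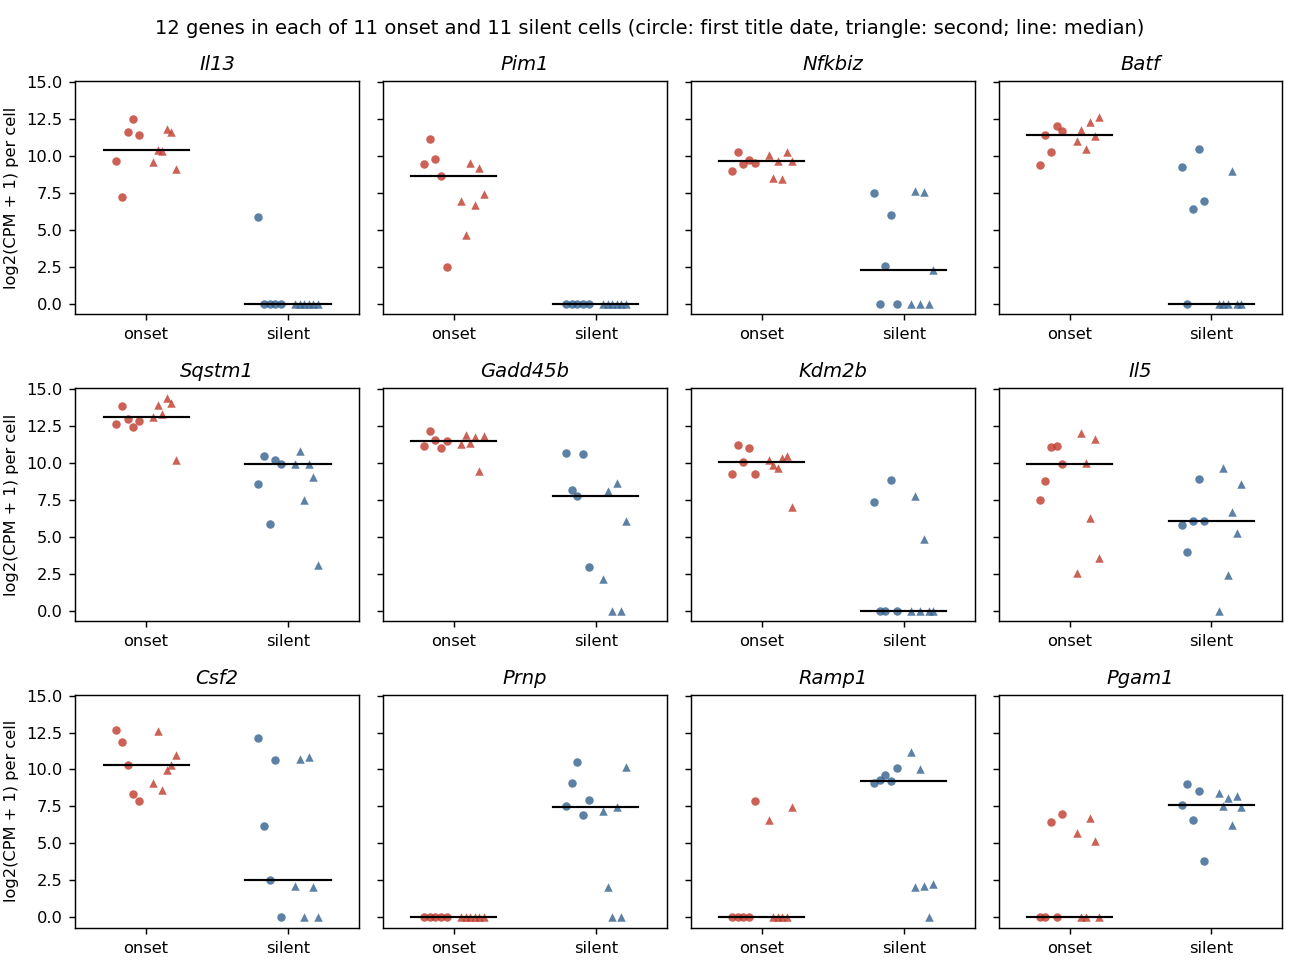
Values of 12 genes in each cell, as log2(CPM + 1) on the vertical axis, for 11 onset cells (red) and 11 silent cells (blue), with circles for the first title date, triangles for the second and a line at the median. Every onset cell lies above every silent cell for Il13, Pim1 and Nfkbiz, Csf2 overlaps widely, and Prnp is at 0 in all onset cells.

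Counted over all genes whose mean of the 2 groups was at least 50 CPM, 188 of 2806 (6.7%) were at least 4-fold higher at onset and 230 (8.2%) at least 4-fold lower, with at least 2-fold the same way on both title dates. These counts rest on fold sizes of summed reads and not on a test. The higher genes took 11.5% of onset and 1.25% of silent reads, and the lower genes 0.447% and 4.18%. Per cell the higher genes took 8.12 to 15.1% of reads at onset and 0.543 to 2.10% in silent cells, a gap that the choice of genes itself fixes. The median log2 ratio of all genes compared was −0.26 (−0.12 on the first and −0.29 on the second date), and the medians of lists below are to be read against it. The ratio of a gene with reads in few cells can rest on 1 of them, so most genes named below were chosen by a second rule: at least 50 CPM in the higher group, detection in 70% or more of that group's cells, and a direction that omission of any 1 cell left in place. Of these, 4 (Alox5, Hivep2, Cnot3 and Bmyc) had a mean of the groups under 50 CPM and are not among the 188 or the 230. Leaving out 1 cell moved the ratio by over 1.5 times for 46 of 62 named genes.

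**Figure D2:**
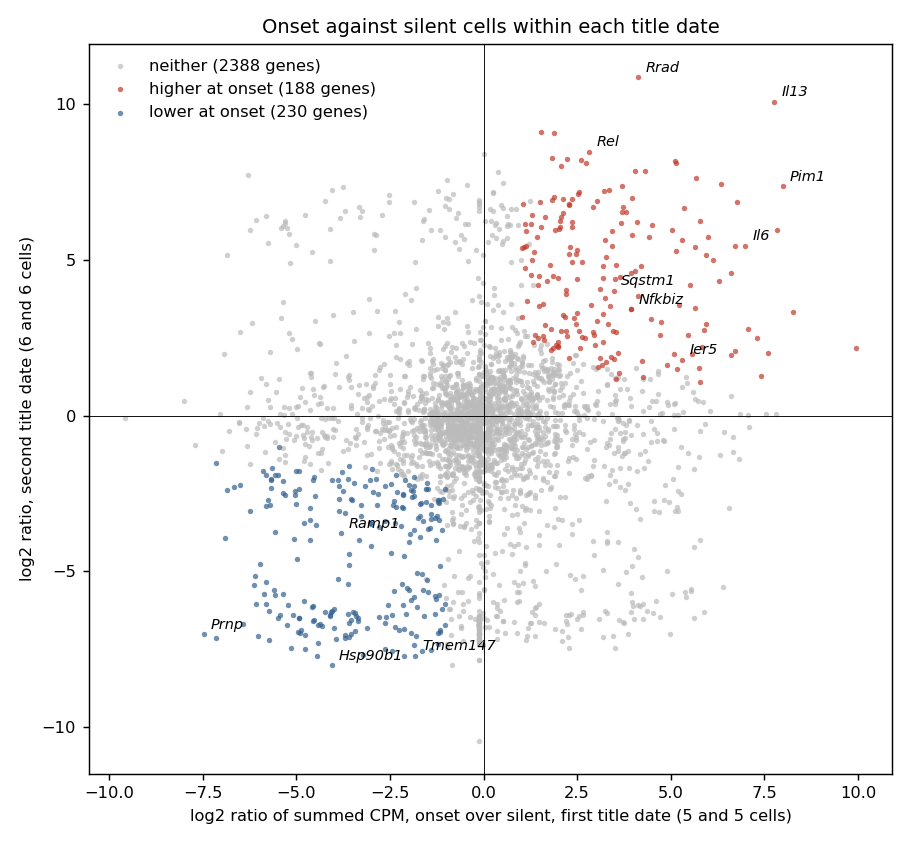
Log2 ratio of summed CPM, onset over silent, on the first title date (horizontal axis, 5 and 5 cells) and on the second (vertical axis, 6 and 6 cells) for 2806 genes, with a group under 3 reads set to 3. The 188 genes counted as higher (red) and 230 as lower (blue) fill 2 opposite corners by their definition, and most genes lie near 0 on both axes.

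Of 5 NF-kB subunit genes, 3 (Rel, Rela and Relb) were counted as higher and 0 as lower, against 6.7% of all genes, and the median log2 ratio was 3.61. Rel, which encodes c-Rel, ran from 12.8 to 2684 CPM (median 848) at onset, whereas in silent cells it was at 0 in 7 of 11 and reached 777 CPM. The groups overlapped, and 6 onset cells lay above all silent cells, with a summed ratio of 12.2-fold. Its log2 ratio of 3.61 was 2.82 and 8.47 on the 2 dates, and 5.05 without silent replicate 1, which held 65.8% of its silent reads. Relb, of the non-canonical pathway, was 19.9-fold higher (339 and 17.0 CPM; log2 ratio 4.32, and 5.59 without silent replicate 4) and Rela, the p65 subunit, was at a log2 ratio of 5.08 from reads in 7 onset cells and 1 silent cell. Nfkb1 and Nfkb2, the precursors of p50 and p52, were at 1.15 and 0.61 and not past 4-fold.

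Of 11 inhibitors and feedback genes of NF-kB compared, 4 (Nfkbiz, Bcl3, Tnfaip3 and N4bp1) were counted as higher, against 6.7% of all genes, and 0 as lower. The other 7 ran from −0.75 (Nfkbie) to 1.76 on the log2 scale, and the list median was 1.69. Nfkbiz, which encodes the nuclear cofactor IkB-zeta, was the most even of them across onset cells, from 352 to 1238 CPM with a median of 807, against 0 to 194 with a median of 3.82 in silent cells. Its groups did not overlap, and the summed ratio was 12.0-fold (3.95 and 3.41 on the log2 scale on the 2 dates). Bcl3, another nuclear IkB family member, was read in 8 onset cells and 1 silent cell and was 46.5-fold higher (log2 ratio 5.54, and 7.37 without that cell). Tnfaip3, which encodes the ubiquitin-editing enzyme A20, was 9.91-fold higher, from a median of 144 CPM at onset and 0 in silent cells (log2 ratio 3.31, and 4.35 without silent replicate 2). N4bp1 rested on reads in 2 onset cells and 1 silent cell. Nfkbia, the classic IkB-alpha gene, stood at 2994 and 883 CPM, at a log2 ratio of 1.76 the highest of the 7 not counted.

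AP-1 and immediate early genes were higher in part. Of 7 AP-1 family genes compared, 3 (Batf, Junb and Maf) were counted as higher and 0 as lower, and of 9 immediate early genes 3 (Ier5, Zfp36l1 and Egr2) and 0, against 6.7% and 8.2% of all genes. Batf3, an AP-1 gene with 0 onset reads and 289 reads in 3 silent cells, lay at −6.61 against the floor and was not counted, because the first date had 0 reads in both groups. Batf, the AP-1 partner that works with IRF factors in lymphocytes, ran from 654 to 6335 CPM (median 2673) at onset and from 0 to 1386 (median 0) in silent cells, and 9 onset cells lay above all silent cells. Its summed ratio was 13.9-fold, or 3.80 on the log2 scale and 4.70 without silent replicate 4. Junb was 6.75-fold higher, with 109 to 1605 CPM against 0 to 830.2 CPM in groups that overlapped, and its log2 ratio of 2.75 was 4.00 without silent replicate 1. Maf, in turn, rested on 3 onset and 3 silent cells, and its ratio fell to 1.12 on the log2 scale without 1 of them. Ier5 and Zfp36l1, the latter an mRNA decay factor, were 5.37-fold and 4.37-fold higher with reads in 11 onset cells each. Zfp36l1 fell to a log2 ratio of 1.93 without onset replicate 8 and Egr2 to 1.88 without silent replicate 10, both under 4-fold, and Ier5 moved from 2.42 to 3.86 without silent replicate 7.

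The stress genes held some of the strongest contrasts between the cells. Of 9 members of the Gadd45 family and stress list compared, 5 (Sqstm1, Gadd45b, Rrad, Nfe2l2 and Gadd45g) were counted as higher and 0 as lower, against 6.7% and 8.2% of all genes, with a median log2 ratio of 2.46. Sqstm1, which encodes the autophagy receptor p62, ran from 1171 to 20820.0 CPM (median 8671) at onset and from 7.64 to 1770.2 CPM (median 940.2) in silent cells. All but 1 of the onset cells lay above all silent cells, and the summed levels of 10922 and 764 CPM differed 14.3-fold. Nfe2l2, which encodes the oxidative stress regulator NRF2, was 5.51-fold higher. Some of its textbook targets, Nqo1, Txnrd1 and Srxn1, stood at log2 ratios of 1.17 to 1.68 and Gclm at −0.39, all short of 4-fold. Srxn1 had opposite signs on the 2 dates (−2.37 and 3.36).

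Gadd45b, a p38 kinase pathway activator, ran from 689 to 4417 CPM (median 2774) at onset and from 0 to 1591 CPM (median 209) in silent cells, 7.95-fold higher with 10 onset cells above all silent cells. Rrad, a small GTPase, ran from 5.54 to 8873 CPM (median 2277) at onset and from 0 to 527 CPM (median 0) in silent cells. The groups overlapped, and 6 onset cells lay above all silent cells. Its summed ratio was 60.8-fold, with log2 ratios of 4.12 on the first and 10.86 on the second date. Of its silent reads 78.0% lay in silent replicate 1, the cell that also held the Il13 reads, and its omission moved the Rrad log2 ratio from 5.93 to 8.00. Gadd45g was read in 7 onset cells and 0 silent cells, at a log2 ratio of 8.26 against the 3-read floor.

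Survival genes and ligands of checkpoint receptors were next. Pim1, a serine/threonine kinase gene downstream of STAT factors, was read in every onset cell, from 4.56 to 2271 CPM with a median of 406. It had 0 reads in all 11 silent cells. With the silent group set to 3 reads it was 429-fold higher, and its counting interval began at 349-fold. The lowest onset cell rested on 1 read. Bcl2l1, which encodes the anti-apoptotic BCL-XL, was 17.9-fold higher (135 and 7.56 CPM; log2 ratio 4.16, and 6.79 without silent replicate 1). Bcl2l11, which encodes its pro-apoptotic relative BIM, was 13.0-fold higher as well (534 and 41.2 CPM), and its log2 ratio of 3.70 was 5.81 without silent replicate 4, which held 78.9% of its silent reads. Of 12 STAT target and survival genes compared, these 3 were counted as higher and Bcl2a1d, a further anti-apoptotic gene with near-identical copies, as lower, against 6.7% and 8.2% of all genes.

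Cd274, which encodes PD-L1, was read in 8 onset cells (up to 673 CPM, median 24.2) and in 1 silent cell with 2 reads, a log2 ratio of 7.76 with a counting interval of 5.90 to 10.81, or 7.18 with the silent group set to 3 reads (2.54 and 7.17 on the 2 dates). Pdcd1lg2, its neighbour on chromosome 19 that encodes PD-L2, was 9.47-fold higher, with reads in 10 onset and 3 silent cells (log2 ratio 3.24, and 4.64 without silent replicate 4). Together with Cd83 (4 onset and 0 silent cells), 3 of 6 costimulatory and checkpoint genes compared were counted as higher, against 6.7% of all genes, and 0 as lower, with list medians of 1.23 on the first and 5.49 on the second date. Icos, a costimulatory receptor of ILC2s, stood at 164 and 165 CPM and did not follow them.

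Mir155hg, the host transcript of miR-155, was read in 7 of 11 onset cells and 0 of 11 silent cells. It was 338-fold higher against the floor, with a counting interval that began at 275-fold. Onset replicate 5 held 64.5% of its reads, and the log2 ratio against the floor was 8.26 on the first and 3.32 on the second date. The 3' libraries count the host transcript, not the mature miRNA, whose RefSeq sequence (GRCm38.p6, chr16:84714143-84714165, plus strand) is shown with the seed, bases 2 to 8, in capitals.
mmu-miR-155-5p: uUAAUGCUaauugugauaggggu

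Of 15 chromatin regulators, a list drawn up with onset genes of these same cells known and so no independent evidence, 6 were compared. Kdm2b and Bcor, both members of a variant Polycomb repressive complex, were counted as higher, against 6.7% of all genes. Kdm2b ran from 125 to 2362 CPM (median 1067) at onset and from 0 to 462 CPM (median 0) in silent cells, 13.7-fold higher with 10 onset cells above all silent cells. Without silent replicate 4 its log2 ratio moved from 3.78 to 4.64. H3f3b, which encodes the replication-independent histone H3.3 and was singled out after its values were seen, took 22092 CPM at onset and 1799.9 CPM in silent cells, a 12.3-fold difference. Its near-identical copies make reads of this gene partly uncertain.

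Of 19 actin cytoskeleton genes compared, Actb and Actg1, which encode the cytoplasmic actins and share near-identical coding sequence, were counted as higher, a share near the 6.7% of all genes. Actb ran from 5321 to 22178 CPM (median 12701) at onset and from 222 to 4688 CPM (median 3349.9) in silent cells, without overlap, and was 4.02-fold higher (log2 ratio 2.01, and 1.87 without silent replicate 11). Actg1 was 6.78-fold higher. The other 17 genes lay between −0.66 and 1.57 on the log2 scale, so the list as a whole, with a median of 0.42, moved less than its actin genes. Cdkn1a, which encodes the cell cycle inhibitor p21, was 5.27-fold higher, with 10 onset cells above all silent cells, and Foxp1, a quiescence factor of lymphocytes, was 8.14-fold higher (log2 ratio 3.03, and 4.18 without silent replicate 7). Of 6 cell cycle genes compared, Cdkn1a was counted as higher and Ccnd3, which encodes cyclin D3, as lower, from reads in 1 onset and 7 silent cells, against 6.7% and 8.2% of all genes.

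The remaining genes furthest higher at onset, among those meeting the second rule above, came from other classes. Irf5, an interferon regulatory factor, was 126-fold higher, with reads in 8 onset cells (up to 1045 CPM) and 1 silent cell. Itgb7, an integrin chain of lymphocyte homing to the gut, was 110.1-fold higher, and Gimap4, a lymphocyte GTPase, 60.4-fold. In both, the silent reads lay mostly or wholly in silent replicate 1, as they did for Il13, Rrad, Irf5 and Bcl2l1. Without that cell the log2 ratios of Itgb7, Gimap4 and Irf5 moved from 6.78, 5.92 and 6.98 to 8.55, 8.31 and 8.29. Without it, 192 genes were counted as higher and 236 as lower. Cflar, which encodes the caspase-8 inhibitor c-FLIP, was 71.0-fold higher and Lgals1, which encodes galectin-1, 61.8-fold. Without silent replicate 4, which held all its silent reads, Lgals1 moved from 5.95 to 9.28 on the log2 scale, and Cflar ran from 5.38 to 7.29 on leaving out any 1 cell. Alox5, which starts leukotriene synthesis, was 65.3-fold higher and Hivep2, a zinc finger gene, 58.0-fold, each with 0 silent reads set to 3. Their counting intervals began at 52.6-fold and 46.7-fold. Ado, a thiol dioxygenase, stood at a log2 ratio of 8.86 (6.37 to 14.16) from 469 reads against 1, or 7.27 against 3 reads, and Lztfl1, a ciliary trafficking gene, was 45.4-fold higher with 66.1% of its onset reads in 1 cell, and at a log2 ratio of 4.12 without that cell. Lpcat2, of platelet-activating factor synthesis, was 25.0-fold higher, and its log2 ratio of 4.64 was 7.78 without silent replicate 5, which held all its silent reads. Of 5 lipid mediator and serotonin genes compared, Lpcat2 and Ptgir, the prostacyclin receptor gene, were counted as higher and Ptger4, a prostaglandin E2 receptor gene, as lower, against 6.7% and 8.2% of all genes.

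Of the 230 genes counted as lower, 49 met the naming rule, which by itself asks for reads in at least 70% of silent cells. Prnp, the prion protein gene (ENSMUSG00000079037), was at 0 in all 11 onset cells and was read in 9 silent cells, up to 1487 CPM with a median of 174. With onset set to 3 reads it was 299-fold lower, a log2 ratio of −8.22 with a counting interval that ended at −7.92. Avpi1 had 1 read at onset and 824 in silent cells, a log2 ratio of −9.70 with a counting interval of −15.01 to −7.22, or −8.12 with onset set to 3 reads, beside −8.22 for Prnp on that scale. Ramp1, the subunit that turns the calcitonin receptor-like receptor into a receptor for CGRP, was read in 3 onset cells (up to 233 CPM) and 10 silent cells (up to 2375 CPM, median 599.9), 13.7-fold lower with nearly equal log2 ratios of −3.80 and −3.77 on the 2 dates. Calca, which encodes CGRP itself and was singled out after its values were seen, stood at 1251 and 3054 CPM, a log2 ratio of −1.29 that did not reach 4-fold.

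Members of the ER folding list differed among themselves. Hsp90b1, the ER chaperone GRP94, was 33.7-fold lower, with reads in 2 onset and 9 silent cells (median 241 CPM), and its log2 ratio of −5.08 was −8.83 without onset replicate 5, which held 97.7% of its onset reads. Similarly read in few onset cells was Pdia6, an ER disulfide isomerase, 11.4-fold lower. Dnajb11, an ER co-chaperone read in 1 onset and 5 silent cells, made the third of 17 ER folding genes counted as lower, against 0 higher and 8.2% of all genes, at a list median of −0.52. Hspa5 (BiP), Calr and Herpud1, which belong to the same list, stood at 0.55, 0.42 and 0.67 and lay on the other side of 0. Tmed3 of vesicle coats was 12.9-fold and Tmem147 of the ER membrane 12.2-fold lower, each with reads in 1 onset cell.

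Other genes lower at onset were Map2k2, which encodes the MAP kinase kinase MEK2 (29.1-fold), Prex1, a Rac exchange factor (39.9-fold), Gfer, a mitochondrial sulfhydryl oxidase (28.7-fold), and Supt5, a transcription elongation factor (24.3-fold). Cnot3 of the deadenylase complex and Bmyc of the Myc family were both 15.6-fold lower, Taf6l 14.2-fold and Mtap, of methionine salvage, 10.2-fold. In Prex1, Map2k2, Gfer, Tmed3 and Tmem147 all onset reads came from 1 cell, and in Supt5, Taf6l and Bmyc 1 cell held 96.7%, 88.6% and 92.3% of them. Without that cell the log2 ratios of Map2k2, Gfer, Supt5, Tmed3 and Tmem147, from −3.61 to −4.86, were between −7.54 and −8.15. Silent cells also held more detected genes at equal depth (median difference −132 genes, onset minus silent), and the part of detection in these low-level differences was not tested. For transcripts of this level, fewer molecules per cell and fewer cells carrying any could not be told apart from summed reads alone.

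**Figure D3:**
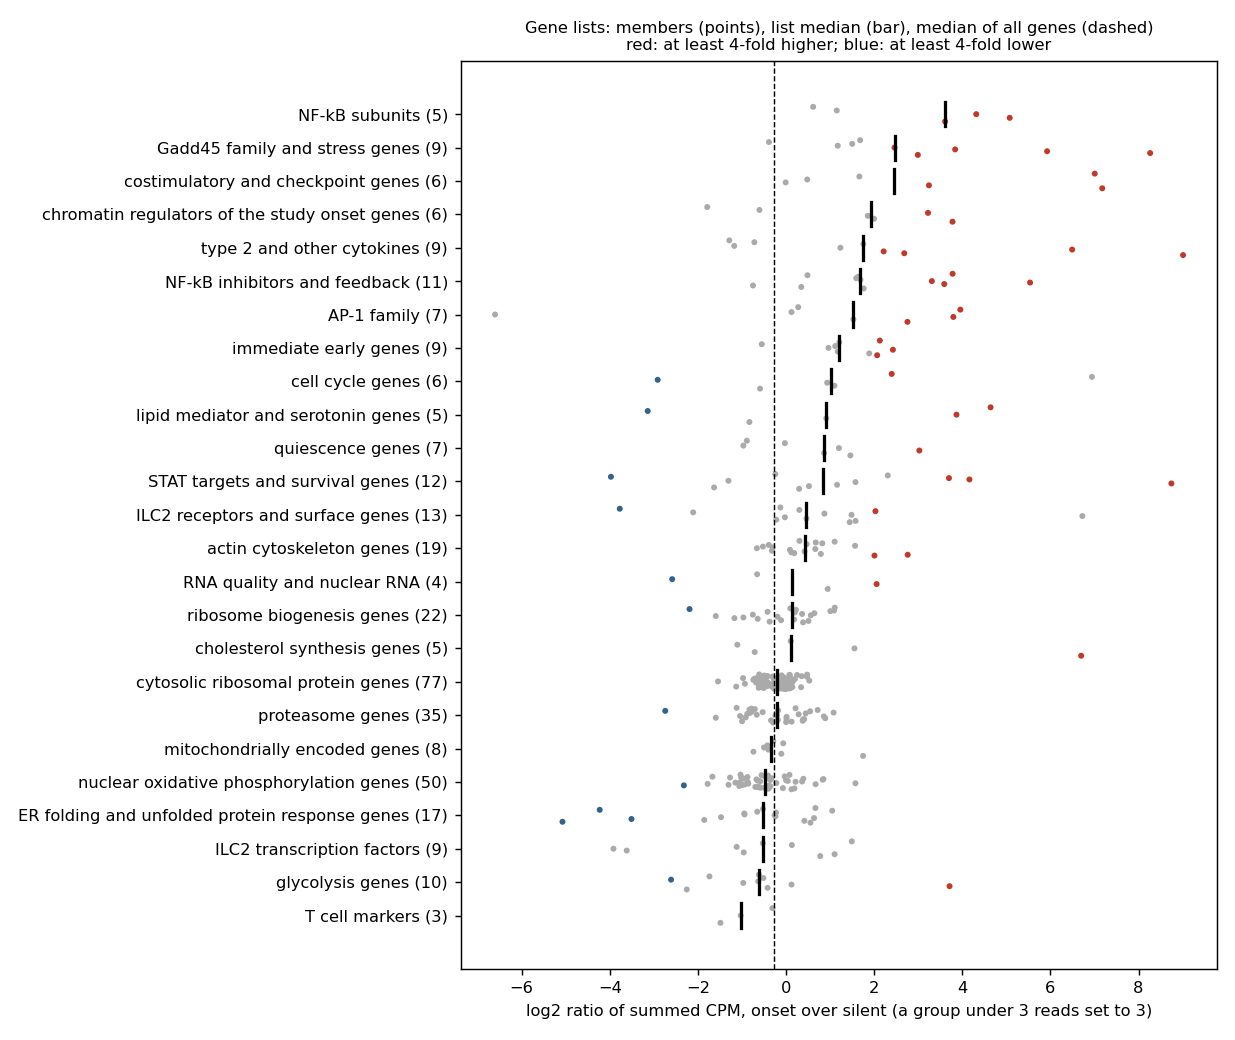
Log2 ratio of summed CPM, onset over silent (horizontal axis), for the members of 25 gene lists with at least 3 genes compared (number in brackets), with bars at the list medians and a dashed line at −0.26, the median of all genes. NF-kB subunits have the highest median, 3.61, and ribosomal protein genes sit tightly around the dashed line.

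Housekeeping lists are to be read against 6.7% of all genes higher and 8.2% lower. Of 77 cytosolic ribosomal protein genes compared 0 were counted in either direction, with a median log2 ratio of −0.20, and of 8 mitochondrially encoded genes 0, with a median of −0.35. Of 50 nuclear oxidative phosphorylation genes only Ndufs6, a complex I subunit, was counted, 4.99-fold lower (109 and 545 CPM), and the list median was −0.49. Proteasome genes (35 compared, median −0.20) and ribosome biogenesis genes (22 compared, median 0.14) each had 1 gene lower, Psmd7 and Noc2l. Of 10 glycolysis genes Pgam1 was 6.11-fold lower, read in all 11 silent cells but 5 onset cells, Pfkp, for the committing phosphofructokinase step, was counted as higher, and 8 were neither. For nuclear RNA, Malat1 stood at 16504 and 8579.7 CPM and Neat1 was 4.16-fold higher, while Kcnq1ot1 was counted as lower. Leaving out 1 cell took Neat1 to a log2 ratio of 1.65, Kcnq1ot1 to −1.90, Psmd7 to −1.94 and Noc2l to −1.60, all under 4-fold.

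Of 9 ILC2 transcription factors compared 0 were counted, against 6.7% and 8.2% of all genes, with Gata3 at 1180.1 and 689.9 CPM, Rora at a log2 ratio of 1.10 and Id2 at −0.96. The list ran from −3.92 to 1.49. Ets1, its lowest member, was read in 4 onset and 6 silent cells and stood at −0.98 on the first and −7.46 on the second date, and Bcl11b, at −3.62, likewise missed 2-fold on the first. Of 13 receptors and surface genes, Klrg1, an inhibitory receptor of mature ILC2s, was 4.08-fold higher (medians of 669 and 6.65 CPM) and Ramp1 lower, shares near the 6.7% and 8.2% of all genes. Without onset replicate 9 the log2 ratio of Klrg1 fell from 2.03 to 1.77, under 4-fold. The receptor genes for the stimuli used, Il1rl1 and Il2ra, stood at log2 ratios of 1.44 and 1.58 and did not reach 4-fold. Il17rb, a chain of the IL-25 receptor, was read in 4 onset cells and 0 silent cells, and was not counted because the first date had 0 reads in both groups. Among the genes fixed for naming, Tph1, of serotonin synthesis, had 99.7% of its onset reads in onset replicate 10, whose omission moved the log2 ratio from −0.83 to −9.29. The other 5 onset cells of its title date each held 1 to 3 Tph1 reads, and the 5 of the first date held 0. Whether single reads crossed between libraries was not tested, which limits values of 1 read such as that of the lowest Pim1 onset cell. Ypel3 stood at −0.97. Ccl1, a chemokine, summed to 0.11 from opposite signs on the 2 dates (1.54 and −0.70), and ran from −0.92 to 1.10 on leaving out any 1 cell.

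The IL-5 index gave a second comparison of the same kind, from other cells: 10 cells at 30 min after the onset of IL-5 secretion and 10 silent for IL-5, after 2 cells under 10000 reads were dropped. There, 132 of 2702 genes (4.89%) were at least 4-fold higher at onset and 95 (3.52%) lower. Of the 188 genes higher in the IL-13 index, 128 could be compared in both, and 99 (77.3%) had the same direction, against 48.7% of all 2085 genes compared in both that were higher at IL-5 onset. By the full rule 16 were counted as higher in both, 8.51% of the 188 and 12.1% of the 132, among them Il5, Il6, Rel, Egr2, Sqstm1, Kdm2b, Klrg1 and Bcl2l11, and 2 (Anxa7 and 0610037L13Rik) were counted as lower there. Of the 230 lower genes 128 could be compared, 79 (61.7%) had the same direction against 51.3% of all, and 8 (3.48% of the 230, 8.42% of the 95) were counted in both, Avpi1 among them, while 4 (Cmip, Kcnq1ot1, Mknk2 and Strap) were counted as higher there.

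Single genes differed in size between the indexes. Il13 was 516-fold higher at onset by its own index but stood at 1897 and 626 CPM in the IL-5 index (log2 ratio 1.60, with 3.09 and 0.36 on the 2 dates), where 8 of 10 cells silent for IL-5 held Il13 reads. Sqstm1 stood at 4432 and 601 CPM (2.88) and Rel at 639 and 148 CPM (2.11), beside ratios of 3.84 and 3.61 in the IL-13 index. Nfkbiz, at 427 and 235 CPM, and Pim1, at 169.5 and 91.1 CPM, had log2 ratios of 0.86 and 0.90, with opposite signs on the 2 dates of that index (1.99 and −0.24 for Nfkbiz, 1.27 and −0.26 for Pim1). Junb and Relb, counted as higher in the IL-13 index, stood at 0.01 and −0.22, the latter from 0.84 on the first and −5.99 on the second date. Mir155hg, Il4 and Bcl2l1, also counted as higher there, were lower at IL-5 onset, with log2 ratios of −1.20, −0.56 and −0.64. Mir155hg was lower on both dates of that index (−1.87 and −0.68), whereas Il4 and Bcl2l1 each had opposite signs on them. Of the 128 higher genes compared in both indexes, 29 had the opposite direction and 99 the same. The differences between the indexes were not tested.

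**Figure D4:**
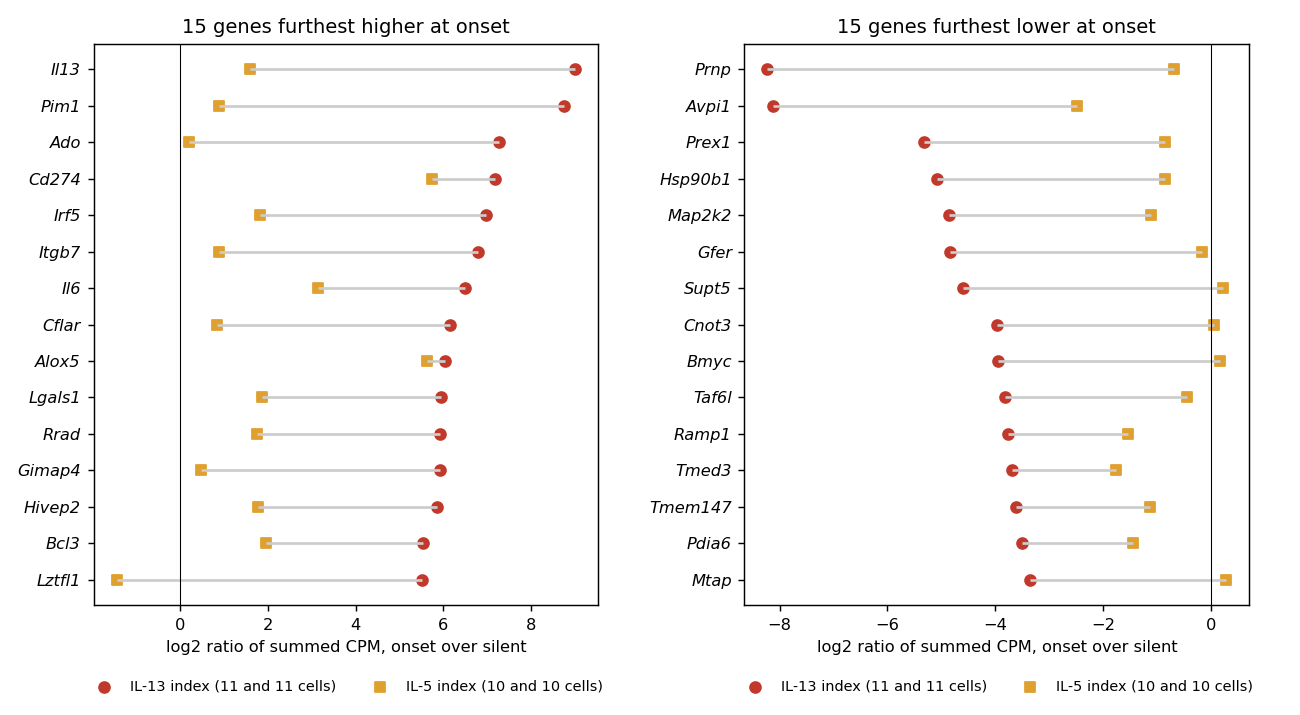
Log2 ratio of summed CPM, onset over silent, in the IL-13 index (red circles, 11 and 11 cells) and in the IL-5 index (yellow squares, 10 and 10 cells). Shown are the 15 genes furthest higher (left) and lower (right) in the IL-13 index among those meeting the naming rule. A group under 3 reads was set to 3. The sign is the same for 14 of the 15 higher and 11 of the 15 lower genes, and all 30 are nearer to 0 in the IL-5 index, as the choice of extremes in the other index favours.

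Levels before stimulation (5 cells) and in activated cells (11 cells secreting when recovered) were set beside both groups. All 5 cells before stimulation carry the first title date, whereas the other groups hold both dates. Il13 stood at 1.04 CPM before stimulation and 1231 CPM in activated cells, beside 2144 at onset and 4.16 in silent cells. Nfkbiz, Kdm2b and Sqstm1 stood at 1.04, 53.9 and 209 CPM before stimulation and 143, 76.1 and 357 CPM in activated cells. At onset the same genes stood at 756, 1088 and 10922 CPM, above all 3 other states. Csf2 and Il9, by contrast, reached 13159 and 44252 CPM in activated cells. Lgals1 and Itgb7 were at 1996 and 545 CPM before stimulation, above the onset level of both (770.3 and 458 CPM), and at 78.0 and 85.8 CPM in activated cells, with the silent cells, at 12.5 and 4.16 CPM, the lowest of the 4 states. Hsp90b1 and Tmem147 were at 342 and 329.7 CPM before stimulation and at 623 and 548 CPM in activated cells, and the onset cells, at 16.4 and 27.3 CPM, were the low group. Prnp, at 27.0 and 12.2 CPM in those states, stood out in the silent cells with 335 CPM. Of the 15 genes furthest lower by the naming rule, 13 were above their onset level before stimulation and 15 in activated cells. In activated cells 3 of them were above the silent level. Of the 15 furthest higher, 14 were below their onset level in activated cells and 3 above it before stimulation. The choice of extremes at onset favours such counts.

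**Figure D5:**
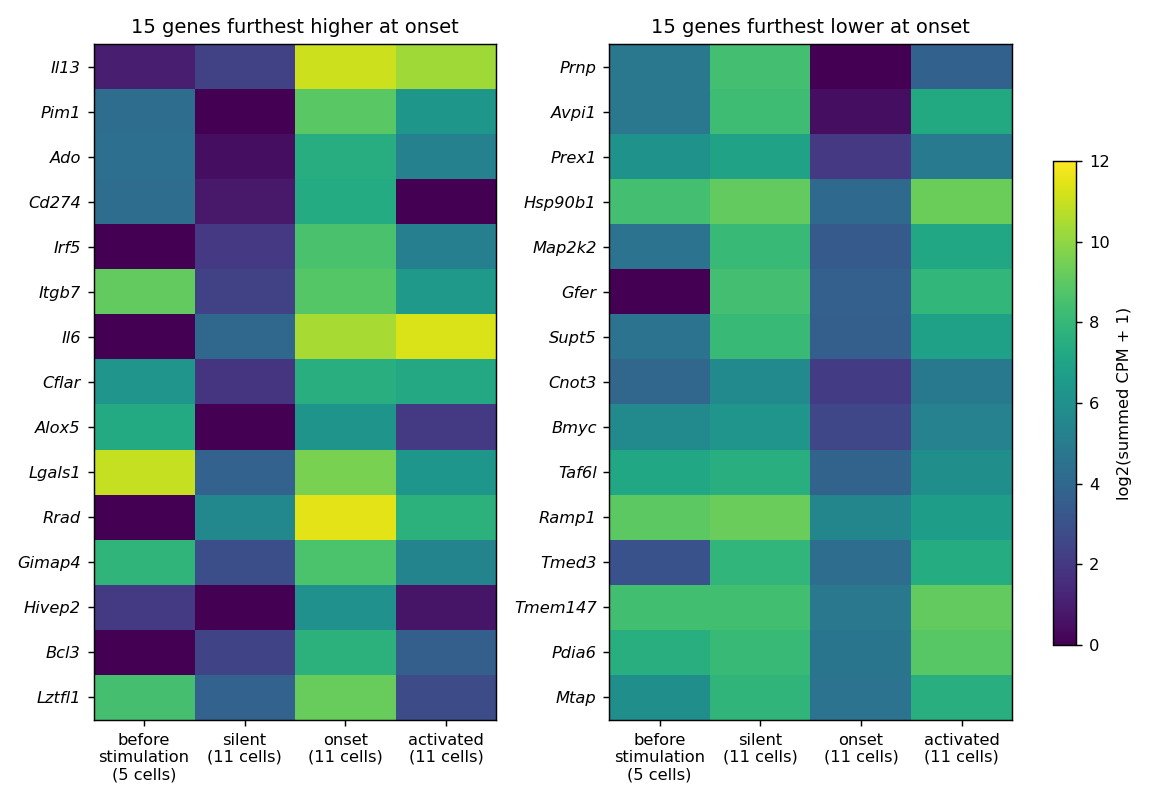
Summed level, as log2(CPM + 1) by colour, of the 15 genes furthest higher (left) and lower (right) at onset among those meeting the naming rule. Columns are cells before stimulation (5 cells, first title date only) and silent, onset and activated cells (11 each, both dates). Il13 is high at onset and in activated cells, while Hsp90b1 and Tmem147 are low in onset cells alone of the 4 states.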

How the data were processed

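The authors aligned reads of single-cell SMART-Seq v4 3' DE libraries to GRCm38 with TopHat 2 and counted them per gene with HTSeq, and deposited raw read counts for 46078 Ensembl identifiers per cell, of which 45143 had a symbol here. The authors added ERCC spike-in RNA to each sample, and rows that hold it were not given in the sources used here. The strand setting and annotation release were not given either, so reads of overlapping antisense genes cannot be told apart. Besides gene counts, the files hold 5 HTSeq summary entries, which were left out of library sizes; all alignments outside genes made up 39.1% of those tallied.

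Groups came from source names. Cells under 10000 gene reads were dropped. Counts were summed over a group and scaled to CPM. Log2 ratios in counts, list medians and plots set a group under 3 reads to 3 reads; genes with 1 or 2 reads in a group are also given without that floor, with their interval. The 95% intervals are exact (Clopper-Pearson) intervals of the split of reads. Without molecular identifiers, intervals and floors cover counting error only. The floor of 3 reads over a group is 1.12 CPM at onset and 1.13 CPM in silent cells. A gene was counted as higher or lower at 4-fold overall and 2-fold on each title date, among genes with a mean of at least 50 CPM. Named were 12 genes of interest, the 15 furthest in each direction and up to 4 per list, at 50 CPM or more in the higher group, with a read in at least 70% of the higher group's cells and the same direction by the mean of the cells' CPM and without any 1 cell. Others named are list members given by their values, or are said to be chosen later. The members, lists and rules were chosen with earlier results of these data known. Each cell was thinned to 100000 reads for genes detected. The measure was tested on simulated counts with made log2 changes of 3 up or down, and recovered medians of 2.98 and −2.98. It counted 96% of raised and 60% of lowered genes. Levels were changed in the onset group only, so lowered genes also lost in the mean that the 50 CPM minimum acts on. These shares therefore do not compare the 2 directions in the real counts. Tables were handled with pandas 2.3.3 and numpy 2.4.6 in Python 3.11.15, intervals came from scipy 1.17.1 and plots from matplotlib 3.10.9, with edgeR 4.0.16 and DESeq2 1.42.0 in R 4.3.3 for scaling factors only. Gene positions are from GENCODE on GRCm38, and promoter and miRNA sequences from RefSeq (GRCm38.p6).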

Additional observations from a re-analysis of the deposited data

Results flagged for a closer look

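Il13 reads were also present in cells outside the comparison. In the IL-13 index, the 11 transition cells recovered 60 min after onset held 967 CPM (95% Poisson interval 933 to 1003), with reads in 10 cells and up to 3828 CPM in 1 of them. The 11 cells at 90 min held 504 CPM (470.2 to 539), again in 10 cells and up to 1302 CPM. Both lay above the 4.16 CPM of the silent cells, and below the 2144 CPM at 30 min. These cells took no part in the values above. Groups of 11 cells are too large for the check of single cells that stand apart, and no gene compared had every onset cell above every silent cell in one index and every one below in the other.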

How the results depend on the processing

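The Il13 ratio (9.01) was 7.77 on the first title date alone, 10.07 on the second, 7.25 with 10 CPM added to both groups, and 8.78 to 10.78 on leaving out any 1 cell. The counts of 188 higher and 230 lower genes were 504 and 667 at a minimum of 10 CPM, 49 and 12 at 200 CPM, 551 and 755 without a filter beyond 1 read, and 115 and 131 at 8-fold. Without the condition on title dates 412 genes were lower, and leaving out any 1 cell gave 173 to 200 higher and 213 to 256 lower. The onset minus silent difference in genes detected (−132) was −471 on the first date alone and −194 to −112 without any 1 cell. TMM and size factors shifted all log2 ratios by 0.20, to a median of −0.06 and −0.07, and moved the higher share of counted genes from 45.0% to 51.3% and 51.1%. Each alternative was run on 65 of the genes named, and the 56 of these that were counted kept their direction. Of 1885 such values, 437 left the counting interval and 22 had the other sign, 8 of them for Ccl1 and 14 for Il9, neither of which was counted. Leaving out 1 cell took Il4, Egr2, Zfp36l1, Klrg1, Actb, Neat1 and Noc2l, and of other list members named Maf, Psmd7 and Kcnq1ot1, under 4-fold. Of the gene lists, 19 to 23 had a median above that of all genes on leaving out any 1 cell. No paired analysis was possible because replicate numbers here follow accession order and pair no cells; the 2 title dates, shared by both groups, entered as within-date values. With cells thinned to 100000 reads, 190 genes were higher and 237 lower. Which single genes depth limits was not tested.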
